A study of Mus musculus with 9 samples.

Results

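The transcripts of 9 genes that receive and pass on the Hedgehog signal are described here, chosen by gene symbol from the 24062 genes of a count table: the receptor genes Ptch1, Hhip, Gas1, Boc and Cdon, the transducer gene Smo and the transcription factor genes Gli1, Gli2 and Gli3. They were picked with measured values of these libraries in view. Their levels and differences are therefore given as a description, and no p-value is given for any of the 9. The study compared mouse embryonic fibroblasts (MEFs, primary cells grown from C57BL/6 embryos) overexpressing p21 from a lentivirus, MEFs overexpressing p16 from a lentivirus, and control MEFs given the empty vector, with 3 libraries per group and RNA taken on day 10. No group was treated with a Hedgehog ligand or inhibitor according to the labels. p21 and p16 are inhibitors of cyclin-dependent kinases, and the p21 and p16 cells are described as senescent, that is, permanently arrested. The control libraries carry the same senescent status label, although their titles call them control. The cells were analysed in bulk. The labels leave unsaid if the 3 libraries of a group stem from different cultures or embryos, so every p-value reflects library-to-library spread alone. Sex-linked transcripts, given below, set replicate 3 of each group apart from the other libraries, so replicate 3 was not a mere repeat of the same cells. The rest of the spread may be technical, which was not tested. The p16 libraries were deposited under record numbers that break from the run of the others, and p16 and a separate preparation cannot be told apart.

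In the Hedgehog pathway, the membrane protein PTCH1 holds the transducer SMO inactive until a secreted Hedgehog ligand binds PTCH1. GAS1, BOC and CDON are co-receptors that help the ligand bind, and HHIP binds the ligand and keeps it from the receptor. Active SMO moves into the primary cilium, a single antenna of the cell surface, and changes the processing of the GLI proteins. GLI2 acts mainly as the activator of target genes and GLI3, cut to a shorter form, mainly as their repressor. GLI1 is an activator whose gene is itself a target, as are Ptch1 and Hhip, so their RNA is commonly read as a measure of pathway output. In the embryo the pathway patterns limbs, neural tube and skeleton, and mesenchymal cells are a main group of responding cells.

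Library totals ran from 56.9 to 76.1 M counts, and the 9 genes took 16247 to 25987 reads of a library. Cdkn1a, the gene of p21, stood at 1130 ± 76.5 counts per 1e+06 counts (CPM) in p21 cells, 419.5 ± 22.3 CPM in p16 cells and 366.2 ± 43.6 CPM in control cells (SD, n = 3 each). Cdkn2a, the gene of p16, stood at 95.6 ± 16.7 CPM in p21 cells, 1017 ± 64.6 CPM in p16 cells and 63.1 ± 5.03 CPM in control cells. Each gene was highest in the group named for it, though the counts do not separate transcripts of the vector from those of the cell. All 10 fibroblast markers were tested and their summed level was 30410 to 33890 CPM in p21, 31500 to 36190 CPM in p16 and 25830 to 37050 CPM in control libraries. Most of the sum came from Col1a1, Col1a2 and Vim, at means of 14260, 8560 and 5971 CPM in p21 cells. The proteoglycan genes Lum and Dcn were low, at 0.249 to 1.56 CPM and 1.565 to 5.217 CPM. Replicate 3 of each group stood apart from replicates 1 and 2 by sex-linked transcripts: Xist was at 158, 262 and 397 CPM in replicate 3 of p21, p16 and control cells, and at no more than 1.34 CPM in any other library. Ddx3y, a Y-linked gene, was at 10.8 CPM in p21 replicate 3, against 1.26 CPM in p16 replicate 3 and 1.10 CPM in control replicate 3, and at 50.1 to 68.5 CPM in replicates 1 and 2, so p21 replicate 3 was not like the other replicate 3 libraries in this gene. Values are therefore given with and without replicate 3, of all groups or of the control group alone, where it decides them. Where control replicate 3 alone is left out, the groups compared no longer match in these transcripts.

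The levels of the 9 genes differed widely. Scaled by exon length, Smo was the most abundant of them in every group, at 23.3 ± 0.348 CPM per kilobase in p21, 23.7 ± 0.553 in p16 and 25.3 ± 0.430 in control cells (SD, n = 3 each). In control cells Gli3 (6.75 ± 0.591 CPM per kilobase), Boc (6.33 ± 0.491), Gas1 (6.19 ± 3.66) and Cdon (4.70 ± 1.10) came next, and neighbours in this order overlapped between libraries. Gli2 (1.74 ± 0.676) and Ptch1 (1.45 ± 0.110) overlapped too, below Cdon. Gli1 (0.151 ± 0.0894) and Hhip (0.0766 ± 0.0133 CPM per kilobase) came last in control cells and also in p21 and p16 cells. In p21 cells Gli2 (0.570 ± 0.171 CPM per kilobase) lay below Ptch1 (1.49 ± 0.0435) with no overlap between libraries, whereas the ranges of Gli2 and Ptch1 overlapped in p16 cells. All 9 genes passed the filter on low counts, Gli1 with 10 to 88 reads per library and Hhip with 11 to 57.

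**Figure D1:**
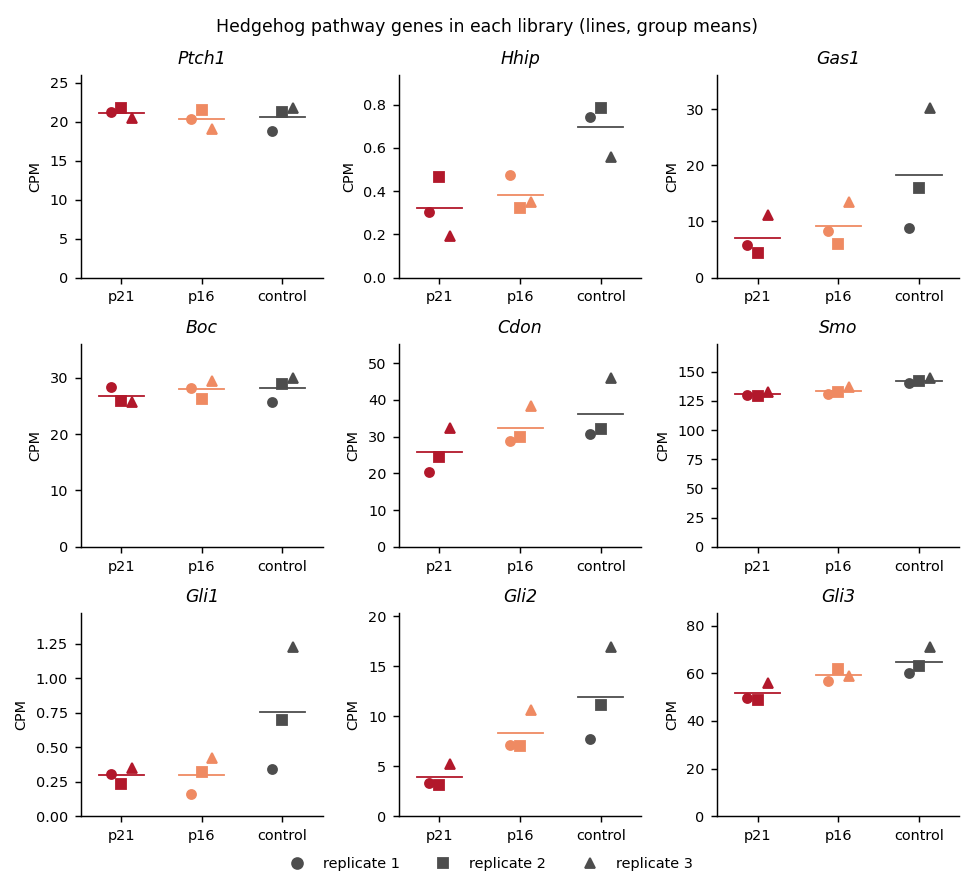
Level of each of the 9 genes in CPM (linear axis from 0) in p21, p16 and control libraries. Points are single libraries, marked by replicate number, and lines are group means; the Gli2 points of p21 cells (3.11 to 5.27 CPM) lie below every other library, while the Ptch1 and Boc points of the 3 groups overlap.

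In the GENCODE M21 annotation of the same assembly Gli1 lies at chr10:127329882-127341974, Gli2 at chr1:118834132-119053619, Gas1 at chr13:60174405-60177365, Ptch1 at chr13:63508328-63573598, Hhip at chr8:79965851-80058006 and Boc at chr16:44485049-44558897, all on the minus strand. Gli3 lies at chr13:15463235-15730026, Smo at chr6:29735503-29761365 and Cdon at chr9:35421128-35507652, all on the plus strand. All are protein-coding, and the counts are sums over their exons.

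The start regions of 3 of these genes are shown because the genes bracket the range of differences described next: Gli2 and Hhip, both lower in p21 than in control cells, and Ptch1, which was not. The Ptch1 window lies at a start inside the GENCODE gene. Each is the RefSeq window of GRCm38.p6 (the mm10 assembly), 250 bases before to 50 bases after the annotated start, read on the strand of the gene, and capitals mark the GC box (GGGCGG or its reverse complement CCGCCC), a common binding motif of promoters.
Gli2 (chr1:119053570-119053869, minus strand): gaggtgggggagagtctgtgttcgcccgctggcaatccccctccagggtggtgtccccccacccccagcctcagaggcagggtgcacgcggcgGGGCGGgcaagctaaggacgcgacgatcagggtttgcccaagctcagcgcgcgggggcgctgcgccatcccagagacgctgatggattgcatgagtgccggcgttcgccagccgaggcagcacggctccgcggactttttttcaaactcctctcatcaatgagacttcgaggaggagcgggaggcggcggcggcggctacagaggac
Hhip (chr8:80057959-80058258, minus strand): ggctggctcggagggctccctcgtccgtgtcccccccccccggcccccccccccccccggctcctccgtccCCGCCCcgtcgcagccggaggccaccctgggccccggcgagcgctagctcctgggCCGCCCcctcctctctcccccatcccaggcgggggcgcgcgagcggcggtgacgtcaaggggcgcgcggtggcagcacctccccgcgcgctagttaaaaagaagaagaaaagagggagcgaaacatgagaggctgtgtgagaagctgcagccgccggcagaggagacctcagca
Ptch1 (chr13:63565686-63565985, minus strand): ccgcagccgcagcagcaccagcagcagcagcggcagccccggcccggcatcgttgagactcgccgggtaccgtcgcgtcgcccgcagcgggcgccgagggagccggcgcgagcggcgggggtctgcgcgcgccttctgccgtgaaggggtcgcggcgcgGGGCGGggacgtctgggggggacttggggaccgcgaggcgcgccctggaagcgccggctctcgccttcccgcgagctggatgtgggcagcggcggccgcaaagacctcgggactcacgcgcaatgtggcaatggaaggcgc
The GC box was present on either strand in the windows of Gli2, Gli3, Hhip, Gas1 and Ptch1, 5 of the 7 for which RefSeq gave a window, beside 35.7% of 32851 windows, and so occurred in genes that differed and in Ptch1 alike. GC content was 67.3% for Gli2, 73.7% for Hhip and 76.3% for Ptch1, beside a median of 52.7% over all windows. The GLI consensus GACCACCCA and its core CCACCCA, searched on both strands and the second contained in the first, were in none of the 7 windows, beside 0.253% and 9.30% of all windows. The E2F motifs TTTCGCGC, TTTGGCGC and TTTCCCGC were in none of the 7 (0.323%, 0.514% and 1.07% of all windows), and the CHR motif TTTGAA was in those of Gli2 and Cdon (17.9% of all windows). The Cdon window (chr9:35451826-35452125, 44.7% GC) also lies at a start inside the GENCODE gene, as does the Gli3 window (chr13:15463473-15463772). The Gas1 window (chr13:60177486-60177785) lies wholly outside the GENCODE gene, upstream of it. Boc and Gli1 were not among the windows.

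Of the 9 genes, the transcription factor gene Gli2 had the largest difference between p21 and control cells. It stood at 3.37, 3.11 and 5.27 CPM in the 3 p21 libraries, 7.16, 7.06 and 10.7 CPM in the p16 libraries, and 7.73, 11.2 and 16.9 CPM in the control libraries. Every p21 library lay below every p16 and every control library, whereas the p16 and control libraries overlapped. The fitted log2 fold change of Gli2 was -1.61 ± 0.307 (SE) in p21 against control cells, which is 3.06-fold lower, -0.52 ± 0.294 in p16 against control cells and -1.09 ± 0.307 in p21 against p16 cells. Without control replicate 3 the first was -1.27 and the second -0.18, with replicate 3 of p21 and p16 cells, the highest of each group, kept. At replicate numbers 1, 2 and 3 the log2 ratio to control was -1.19, -1.84 and -1.68 in p21 cells. In p16 cells it was -0.11, -0.66 and -0.66. Because these are bulk samples, fewer Gli2-expressing cells and less Gli2 RNA per cell cannot be told apart, and the same holds for every gene below.

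Gli3 was the more even of the Gli genes. It stood at 49.8, 48.8 and 56.1 CPM in p21, 56.8, 61.9 and 59.0 CPM in p16 and 60.1, 63.1 and 71.0 CPM in control libraries. The p21 libraries lay below all others, p21 replicate 3 by a narrow margin, and p16 and control libraries overlapped. The log2 fold change of Gli3 was -0.33 ± 0.0755 in p21 against control cells, -0.13 ± 0.0754 in p16 against control cells and -0.20 ± 0.0756 in p21 against p16 cells.

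Gli1, itself a target of the pathway, was covered by few reads. It had 22, 16 and 20 reads (0.303, 0.234 and 0.350 CPM) in p21, 10, 22 and 29 reads (0.164, 0.323 and 0.422 CPM) in p16 and 26, 51 and 88 reads (0.339, 0.701 and 1.23 CPM) in control libraries. Control replicates 2 and 3 lay above all p21 and p16 libraries, and control replicate 1 lay among them. The log2 fold change of Gli1 was -1.35 ± 0.487 in p21 against control cells, -1.30 ± 0.484 in p16 against control cells and -0.05 ± 0.519 in p21 against p16 cells. Without replicate 3 of any group these became -0.94, -1.07 and 0.13, the last with the opposite sign. Without control replicate 3 alone the difference from control cells was -0.81 in p21 and -0.76 in p16 cells. An antisense gene overlaps 5.31% of the Gli1 exon bases.

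The makeup of the Gli transcripts was then compared. Of the sum of the 3 Gli genes in CPM per kilobase, Gli2 took 8.55, 8.10 and 11.5% in the p21 libraries, 14.9, 13.6 and 19.9% in the p16 libraries and 15.1, 19.5 and 24.4% in the control libraries. Gli3, whose product is mainly a repressor in its shorter form, took 89.6 ± 1.90% in p21, 83.1 ± 3.55% in p16 and 78.7 ± 5.40% in control cells (SD, n = 3 each). The ratio of Gli3 to Gli2 was 10.6, 11.2 and 7.62 in p21, 5.68, 6.28 and 3.96 in p16 and 5.57, 4.04 and 3.01 in control libraries. The p21 ratios lay above all others, and in each group replicate 3 had the lowest ratio. These are ratios of RNA and say nothing of the forms of the proteins.

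**Figure D2:**
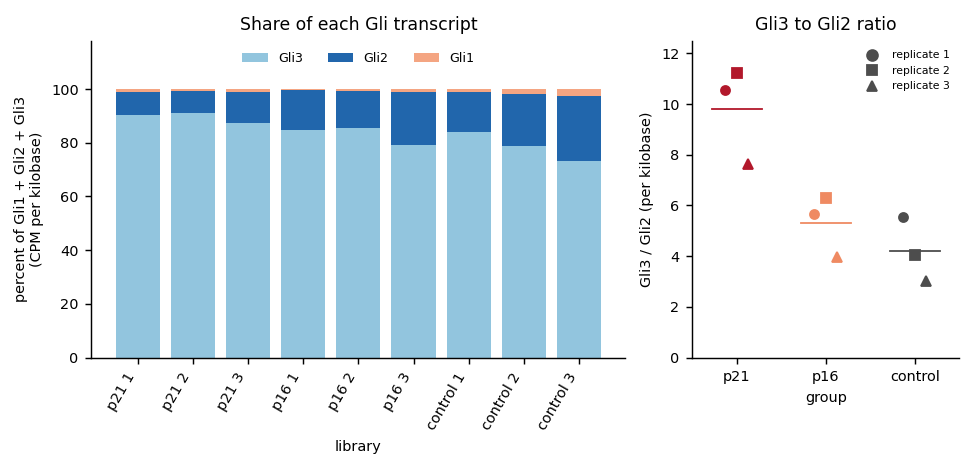
Left, share of Gli3, Gli2 and Gli1 in their sum (percent, CPM per kilobase of exon) in each library of the p21, p16 and control groups; right, ratio of Gli3 to Gli2 by library (points) with group means (lines). The mean ratio was 9.81 in p21, 5.31 in p16 and 4.20 in control cells, and Gli1 was at most 2.43% of the sum.

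Gas1, a co-receptor gene, had a wide spread between libraries. It stood at 5.72, 4.31 and 11.1 CPM in p21, 8.24, 5.96 and 13.5 CPM in p16 and 8.87, 15.98 and 30.2 CPM in control libraries. Replicate 3 was the highest of each group, and p21 replicate 3 lay above control replicate 1, so that the groups overlapped. The log2 fold change of Gas1 was -1.38 ± 0.485 in p21 against control cells, -0.99 ± 0.477 in p16 against control cells and -0.40 ± 0.486 in p21 against p16 cells. Without control replicate 3 the difference between p21 and control cells was -0.82 and that between p16 and control cells -0.42. Those values kept the high replicate 3 of p21 and p16 cells. At replicate numbers 1, 2 and 3 the log2 ratio to control was -0.63, -1.88 and -1.43 in p21 cells. In p16 cells it was -0.10, -1.42 and -1.16. A lincRNA on the other strand overlaps 19.9% of the Gas1 exon bases, and without strand information its reads cannot be told from those of Gas1.

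The related co-receptor genes Cdon and Boc did not show differences of the same size. Cdon stood at 20.5, 24.5 and 32.3 CPM in p21, 28.8, 29.9 and 38.5 CPM in p16 and 30.6, 32.1 and 46.0 CPM in control libraries. The groups overlapped through replicate 3, the highest of each group. Its log2 fold change was -0.50 ± 0.198 in p21 against control cells, -0.16 ± 0.197 in p16 against control cells and -0.33 ± 0.198 in p21 against p16 cells. Without control replicate 3 the difference of Cdon from control cells was -0.28 in p21 cells and 0.05 in p16 cells, the second with the opposite sign. Those values kept the high replicate 3 of p21 and p16 cells. At replicate numbers 1, 2 and 3 the log2 ratio of Cdon to control was -0.09, -0.10 and -0.26 in p16 cells. Boc stood at 28.4, 25.9 and 25.7 CPM in p21, 28.1, 26.2 and 29.4 CPM in p16 and 25.7, 28.8 and 30.0 CPM in control libraries, and its groups overlapped throughout. Its log2 fold change was -0.08 ± 0.0718 in p21 against control cells and -0.01 ± 0.0717 in p16 against control cells.

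Ptch1 and Hhip, which encode the receptor and a decoy for the ligand and are both known targets of GLI factors, came out differently. Ptch1 stood at 21.2, 21.7 and 20.5 CPM in p21, 20.4, 21.5 and 19.1 CPM in p16 and 18.8, 21.2 and 21.7 CPM in control libraries, with no order among the groups. Its log2 fold change was 0.04 ± 0.0700 in p21 against control cells, -0.02 ± 0.0701 in p16 against control cells and 0.05 ± 0.0702 in p21 against p16 cells. Hhip had 22, 32 and 11 reads (0.303, 0.467 and 0.193 CPM) in p21, 29, 22 and 24 reads (0.475, 0.323 and 0.349 CPM) in p16 and 57, 57 and 40 reads (0.743, 0.783 and 0.558 CPM) in control libraries. All p21 and p16 libraries lay below all control libraries, and p21 and p16 libraries overlapped. The log2 fold change of Hhip was -1.10 ± 0.337 in p21 against control cells, -0.86 ± 0.332 in p16 against control cells and -0.23 ± 0.353 in p21 against p16 cells.

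Smo varied least. It stood at 129.6, 129.5 and 132.9 CPM in p21, 130.7, 132.4 and 136.7 CPM in p16 and 140.1, 141.6 and 144.8 CPM in control libraries. All p21 and p16 libraries lay below all control libraries, by a small margin: Smo was 8.10% lower in p21 and 6.27% lower in p16 than in control cells (log2 fold changes of -0.12 ± 0.0402 and -0.09 ± 0.0402).

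**Figure D3:**
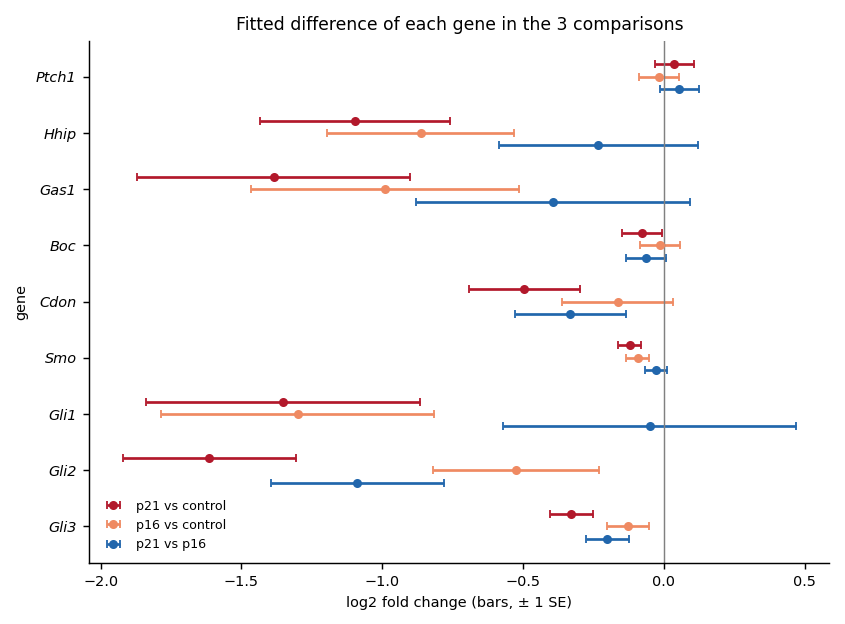
Fitted log2 fold change (x axis, bars are ± 1 SE) of the 9 genes (y axis) for p21 against control, p16 against control and p21 against p16 cells. Gli2 is the lowest in p21 against control (-1.61), Gli1 in p16 against control (-1.30), and Ptch1 and Boc lie within 0.08 of 0 in each comparison.

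Counted over the 9 genes, 8 had a negative log2 fold change in p21 against control cells, with a median of -0.50 beside -0.01 over all 14572 genes tested. By edgeR's quasi-likelihood test with Benjamini-Hochberg adjustment over all genes, 5 of the 9 were past the threshold of 0.05 and lower (Gli2, Gli3, Hhip, Smo and Gas1), beside 20.7% of all genes lower, 19.3% higher and 39.9% in either direction. As these genes were chosen with such values known, the count is a description. Gli2 and Gli3 were past the threshold under all 17 other settings and left-out libraries, whereas the count of 5 became 2 without control replicate 2 or p21 replicate 1, and 3 without control replicate 3, p21 replicate 2 or p16 replicate 2. Hhip was past it under 11 of the 16 alternatives that kept it, Gas1 under 9 of 17 and Smo under 5 of 17. In 4 of the 9 the p21 and control libraries did not overlap, all lower, beside 25.7% of all genes.

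In p16 against control cells all 9 log2 fold changes were negative, with a median of -0.16 beside -0.01 over all genes. Without control replicate 3 those of Cdon (0.05), Ptch1 (0.03) and Boc (0.04) were positive, with p16 replicate 3 kept. Compared within a replicate number, Cdon was lower in p16 than in control cells at 3 of 3, Boc at 2 and Ptch1 at 1. None of the 9 was past the threshold by edgeR or by DESeq2, beside 7.22% of all genes by edgeR (3.65% lower and 3.57% higher) and 12.4% by DESeq2. At an unadjusted p under 0.05 by edgeR 3 were lower, beside 12.9% of all genes lower at that level. With the replicate number as a block, 3 of the 9 (Gli1, Gli2 and Gas1) were past it and lower, beside 8.38% of all genes lower in the blocked fit. The p16 and control libraries did not overlap for Hhip and Smo, 2 of 9 beside 15.1% of all genes lower without overlap. In p21 against p16 cells 1 of the 9, Gli2, was past the threshold, beside 6.64% of all genes lower, 6.19% higher and 12.8% in either direction, and 3 were (Gli2, Gli3 and Cdon, all lower) with the block or with replicates 1 and 2 alone, beside 12.2% of all genes lower with the block and 6.27% with those replicates. The call of Gli2 in this comparison was lost without control replicate 2 and without any one of p21 replicate 1, p21 replicate 2 and the p16 replicates. All 3 comparisons share libraries, so their values stand side by side and are not independent of each other.

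Replicate 3 also set much of the spread within groups. Gli1, Gli2, Gas1, Cdon and Smo were highest in replicate 3 of all 3 groups. For Gas1, replicate 3 was 2.22-fold the mean of replicates 1 and 2 in p21 cells, 1.90-fold in p16 cells and 2.43-fold in control cells. For Gli2 the same ratio was 1.63 in p21, 1.501 in p16 and 1.79 in control cells, and for Cdon 1.44, 1.31 and 1.47. Hhip went the other way in p21 (0.5) and control cells (0.731) and was in the middle in p16 cells. With replicates 1 and 2 of each group alone, the log2 fold change in p21 against control cells was -1.54 for Gli2, -0.32 for Gli3, -1.30 for Gas1, -0.48 for Cdon and -0.98 for Hhip, each with the sign it had in all libraries. Compared within a replicate number, 7 of the 9 genes were lower in p21 than in control cells at every number, beside 34.3% of all genes, and Ptch1 and Boc were not. In p16 against control cells 7 of the 9 were lower at every number, beside 27.1% of all genes, and in p21 against p16 cells 5 of the 9, beside 31.3%.

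Marker lists, also chosen with earlier results of these data known, were read across the same groups. In p21 against control cells the called shares were 100% of cycling, 69.2% of macrophage and 42.9% of cartilage and bone markers tested. They were 30% for fibroblast, 25% for nerve and 16.7% for endothelial markers, beside 39.9% of all genes. In p16 against control cells they were 66.7% for cycling, 16.7% for endothelial and 0% for the other markers, beside 7.22% of all genes. All 12 markers of cycling cells fell in p21 against control cells, with a summed level of 596 to 689 CPM in p21, 965 to 1023 CPM in p16 and 1254 to 1465 CPM in control libraries, and 8 of them fell in p16 against control cells. Of 15 macrophage markers, 13 were tested and 9 rose in p21 cells, with a summed level of 27.0 to 47.0 CPM in p21 and 13.8 to 15.9 CPM in control libraries, and none rose in p16 cells (11.2 to 15.7 CPM; edgeR, 0 of 13 higher at an unadjusted p under 0.05). Fcgr1 and Aif1, both macrophage markers, were near 0. Of 10 cartilage and bone markers, 7 were tested; Col2a1, the cartilage collagen gene, and Runx2, a bone cell factor, fell and Comp rose in p21 cells, and the summed level was 449 to 697 CPM in p21, 680 to 1144 CPM in p16 and 745 to 1439 CPM in control libraries, with Matn1, Bglap and Ibsp at or near 0. Of 6 epithelial markers 2 were tested and none passed by edgeR (0 at an unadjusted p under 0.05), 1 of 6 endothelial markers rose in p21 and 1 in p16 cells, and 1 of the 4 nerve markers tested rose in p21 cells. Of the 10 fibroblast markers 2 rose and 1 fell in p21 against control cells. S100a4, a calcium-binding protein gene, rose to 930.6 ± 149.7 CPM in p21 cells, against 590 ± 106.6 CPM in control cells (edgeR adjusted p = 0.0116), and Thy1, a surface protein gene, rose to 578.4 ± 37.5 CPM, against 501.1 ± 10.1 CPM in control cells (edgeR adjusted p = 0.0199). Pdgfra, a receptor gene of mesenchymal cells, fell to 12.4 ± 3.52 CPM in p21 cells, against 29.4 ± 9.67 CPM in control cells (edgeR adjusted p = 0.00448, n = 3 each). The part of these genes, or of the cells that carry them, in the differences of the 9 was not tested.

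The rest of the pathway was read from 89 further genes in 5 lists made by role, of which 84 were tested. These lists too were chosen with earlier results of these data known. Their counts and p-values therefore describe these libraries and are not independent support. In p21 against control cells 28 of the 84 passed edgeR's quasi-likelihood test with Benjamini-Hochberg adjustment over all genes, 11 higher and 17 lower, a share of 33.3% beside 39.9% of all genes, and their median log2 fold change was 0.02 beside -0.01 over all genes. The count was 15 without p21 replicate 1, in a fit that called 28.6% of all genes. In p16 against control cells 2 passed, 1 higher and 1 lower (2.38% beside 7.22%), and 10 did with the replicate number as a block, in a fit that called 17.0% of all genes. That count of 2 was 4 without control replicate 1, and 1 without control replicate 3, p21 replicate 1, p21 replicate 2 or any p16 replicate. In p21 against p16 cells 4 passed, 2 higher and 2 lower (4.76% beside 12.8%), 14 did with the block, which called 24.0% of all genes, and none did without p21 replicate 1. That count of 4 was 7 without control replicate 1, 2 without p21 replicate 2 or p16 replicate 1, and 1 without p16 replicate 2 or p16 replicate 3.

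Ligand transcripts were scarce. Shh had 1 read in 1 p21 library and none elsewhere, where 0 reads allow up to 3. Ihh had 2 to 27 reads per library. It stood at 0.184 ± 0.172 CPM in p21, 0.0999 ± 0.0660 CPM in p16 and 0.0756 ± 0.0605 CPM in control cells, and the groups overlapped. Dhh, the ligand known from testis and peripheral nerve, stood at 1.66 ± 0.815 CPM in p21, 1.37 ± 0.585 CPM in p16 and 1.199 ± 0.359 CPM in control cells (SD, n = 3 each), and its difference did not pass (edgeR adjusted p = 0.422 in p21 against control). Of 9 listed genes 7 were tested and 2 rose in p21 against control cells (28.6% beside 39.9% of all genes called). Both are of the Dispatched family that lets ligand out of the producing cell. Disp1 stood at 55.3 ± 4.89 CPM in p21 and 44.7 ± 4.54 CPM in control cells (log2 fold change 0.31 ± 0.0995, edgeR adjusted p = 0.0337), a call lost without control replicate 1, control replicate 2, p21 replicate 2 or p21 replicate 3. Disp2 was at 1.12 ± 0.182 CPM in p21 and 0.510 ± 0.146 CPM in control cells (1.14 ± 0.292, edgeR adjusted p = 0.0119). Without p21 replicate 1 this call was lost. None of the 7 passed in p16 against control (1 at an unadjusted p under 0.05) or in p21 against p16 cells (0 at that level), nor with the replicate block or by DESeq2. All genes called in these 2 comparisons were 17.0% and 24.0% with the block and 12.4% and 17.8% by DESeq2.

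Of the other receptor and membrane genes 7 of 8 were tested and 2 fell in p21 against control cells (28.6% beside 20.7% of all genes lower and 39.9% called). Gpc3, a glypican that binds ligand away from the receptor, fell to 10.8 ± 2.63 CPM in p21 cells, against 22.0 ± 3.86 CPM in control cells (-1.03 ± 0.192, edgeR adjusted p = 0.00241). Evc, a partner of SMO at the base of the cilium, fell to 29.9 ± 0.702 CPM in p21 cells and to 30.5 ± 1.03 CPM in p16 cells, against 36.0 ± 2.12 CPM in control cells (edgeR adjusted p = 0.00388 for p21 and 0.0302 for p16). The p16 call of Evc was lost in 9 of 17 settings, among them the omission of control replicate 2 or 3, p21 replicate 1 or 2 or any p16 replicate. With the replicate block 2 of the 7, Gpc3 and Evc, were lower in p16 than in control cells, beside 8.38% of all genes lower. In that fit 1, Gpc3, was lower in p21 than in p16 cells, beside 12.2% of all genes lower. Evc2, the partner of Evc, did not pass (log2 fold change of -0.07 in p21 and -0.08 in p16 against control; edgeR adjusted p = 0.182 and 0.235).

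Of 18 cytoplasmic regulators of the GLI proteins 3 rose and 2 fell in p21 against control cells, a called share of 27.8% beside 39.9% of all genes. Kif7, a kinesin that scaffolds GLI regulation at the tip of the cilium, fell to 10.7 ± 0.201 CPM in p21 cells, against 13.7 ± 0.640 CPM in control cells (-0.35 ± 0.0719, edgeR adjusted p = 0.00421). Dyrk2, a kinase gene, fell to 30.6 ± 1.07 CPM, against 35.9 ± 2.48 CPM in control cells (adjusted p = 0.0103 by edgeR). Dzip1, a cilium protein gene, rose to 28.7 ± 0.852 CPM in p21 cells, against 23.2 ± 0.940 CPM in control cells (adjusted p = 0.0016 by edgeR). Spop, an adaptor for GLI2 and GLI3 degradation, rose to 210.0 ± 8.05 CPM, against 185.3 ± 9.14 CPM in control cells (adjusted p = 0.0246 by edgeR), a call lost without control replicate 3 or p21 replicate 1. Prkar1a, the most read of the list and a subunit of protein kinase A, did not pass (0.06, edgeR adjusted p = 0.283). Without the replicate block none of the 18 passed in p16 against control (3 at an unadjusted p under 0.05) or in p21 against p16 cells (4 at that level). With it 2 were higher in p16 than in control cells, Dzip1 and Spop, and 1 was lower in p21 than in p16 cells, Dyrk2, beside 17.0% and 24.0% of all genes called. By DESeq2 1 passed in each of these comparisons, beside 12.4% and 17.8% of all genes called.

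The primary cilium list was the largest. Of 37 genes 3 rose and 11 fell in p21 against control cells, a called share of 37.8% beside 39.9% of all genes, and the median log2 fold change was -0.04. Cc2d2a, of the transition zone at the base of the cilium, fell to 13.1 ± 1.10 CPM in p21 cells, against 19.9 ± 1.74 CPM in control cells (-0.61 ± 0.0848, edgeR adjusted p = 0.000497). Arl13b, a small GTPase of the cilium membrane, fell to 19.7 ± 0.298 CPM, against 24.4 ± 1.33 CPM in control cells (adjusted p = 0.00185 by edgeR), and Ift80, of intraflagellar transport, fell to 13.1 ± 0.447 CPM, against 17.2 ± 1.86 CPM in control cells (adjusted p = 0.00415 by edgeR). Kif3b, a motor subunit of the same transport, rose to 62.3 ± 2.32 CPM in p21 cells, against 53.4 ± 0.620 CPM in p16 and 48.2 ± 1.07 CPM in control cells (edgeR adjusted p = 0.0121 and 0.000211). Cep290 and Cc2d2a were the 2 that fell in p21 against p16 cells. Cep290 stood at 11.0 ± 0.743 CPM in p21, 14.4 ± 1.92 CPM in p16 and 14.8 ± 0.228 CPM in control cells (edgeR adjusted p = 0.0267 against p16 and 0.00591 against control), the call against p16 cells being lost without p21 replicate 1, p21 replicate 3 or p16 replicate 2. The p21 against p16 call of Cc2d2a (edgeR adjusted p = 0.042) was lost without control replicate 2, p21 replicate 1, p21 replicate 2 or any p16 replicate, and that of Kif3b without p21 replicate 1 or p16 replicate 3. Kifap3, the most read of the list, did not pass (0.10, edgeR adjusted p = 0.223). Without the replicate block none of the 37 passed in p16 against control cells (6 at an unadjusted p under 0.05). With it 3 passed, 1 higher (Kif3b) and 2 lower, Cc2d2a among them, and 3 passed by DESeq2, which called 12.4% of all genes. In p21 against p16 cells 3 passed, and 5 with the block. The blocked fit called 17.0% of all genes in p16 against control and 24.0% in p21 against p16 cells.

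Known GLI targets moved in both directions. Of 18 listed 15 were tested, and 3 rose and 2 fell in p21 against control cells, a called share of 33.3% beside 39.9% of all genes. Ccnd2, the gene of cyclin D2, rose to 1264 ± 69.3 CPM in p21 cells and to 1111 ± 66.7 CPM in p16 cells, against 769.3 ± 47.5 CPM in control cells (edgeR adjusted p = 4.92e-05 and 0.00523), and passed under all 17 alternatives in both comparisons. Ccnd1, the gene of cyclin D1, rose to 556.8 ± 93.6 CPM in p21 cells, against 375.8 ± 81.7 CPM in control cells (adjusted p = 0.0308 by edgeR), and Bcl2, which guards against apoptosis, rose to 13.4 ± 1.32 CPM, against 11.1 ± 0.274 CPM in control cells (adjusted p = 0.0289 by edgeR). Both calls were lost without control replicate 2, control replicate 3, p21 replicate 1 or p21 replicate 2. Snai1, a regulator of mesenchymal identity, fell to 69.8 ± 4.68 CPM in p21 cells, against 86.0 ± 11.2 CPM in control cells (adjusted p = 0.0441 by edgeR), a call lost in 9 of 17 settings. Log2 fold changes of the list in p21 against control cells ran from -1.24 to 0.72. Mycn, with few reads, stood at 0.352 ± 0.156 CPM in p21, 0.529 ± 0.263 CPM in p16 and 0.843 ± 0.117 CPM in control cells. Its p21 libraries (10 to 32 reads) lay below all its control libraries (55 to 69 reads) in CPM. Bmp4, a secreted growth factor gene, averaged 23.8 ± 1.44 CPM in p21 cells, against 19.5 ± 1.29 CPM in p16 cells (0.29 ± 0.0765, edgeR adjusted p = 0.0374), lost without p21 replicate 1, p21 replicate 2 or any p16 replicate. With the replicate block 3 of the 15 targets, all higher, passed in p16 against control cells, where 1 did without it, and 7 passed in p21 against p16 cells, 4 higher and 3 lower, where 1 did without it. The blocked fit called 17.0% of all genes in the first comparison and 24.0% in the second. The part of the cycling markers given above in these levels was not tested.

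**Figure D4:**
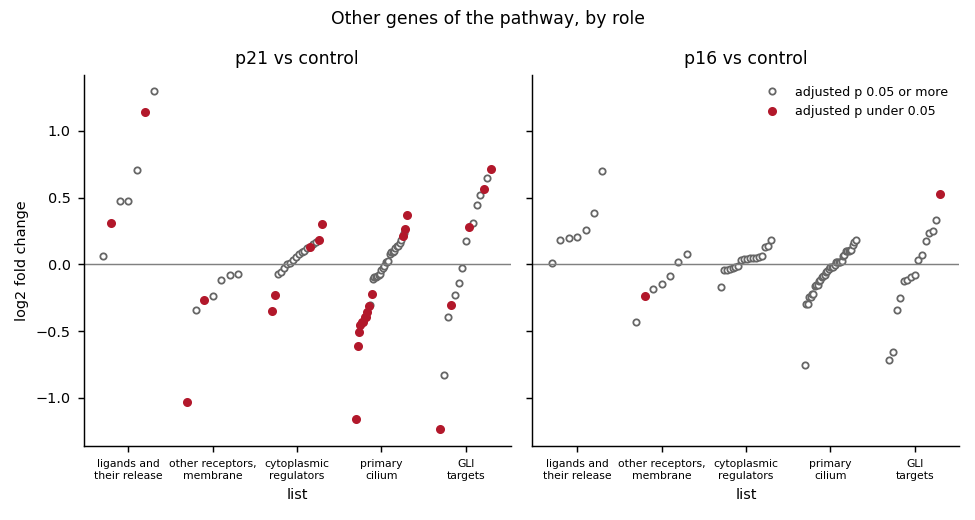
Fitted log2 fold change (y axis) of the 84 other pathway genes tested, by list (x axis), in p21 against control cells (left) and p16 against control cells (right). Filled points have an adjusted p under 0.05 by edgeR; 28 are filled on the left and 2 on the right, and in the cilium list 11 of the 14 filled points on the left lie below 0.

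The genes with profiles nearest to Gli2 over the 9 libraries, by root mean square difference of centred log2 CPM among 10439 genes, were Egr3 (0.150), Dlk1 (0.174), Olfml3 (0.180), Fbn2 (0.181) and Slc14a1 (0.209), beside a root mean square of 0.750 for the Gli2 profile itself. Egr3, an early growth response factor, stood at 8.02 ± 1.99 CPM in p21, 14.6 ± 2.99 CPM in p16 and 21.3 ± 6.95 CPM in control cells. Dlk1, a membrane protein of immature mesenchymal cells, stood at 51.4 ± 10.6 CPM in p21, 102.2 ± 28.0 CPM in p16 and 144.1 ± 52.2 CPM in control cells. Gli1 had no neighbour as near: Socs3 (0.371), Sim2 (0.390), Dclk1 (0.393), Usp11 (0.404) and Diras2 (0.408) came closest, beside 0.752 for Gli1 itself. These libraries share the groups and replicate 3 described above, so nearness describes the profiles alone.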

How the data were processed

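RNA of mouse embryonic fibroblasts was sequenced in 9 libraries, 3 per group. The deposited table holds whole-number counts of reads per gene, made by the authors with TopHat2 2.0.14, Bowtie2 2.2.6 and featureCounts 1.4.6 (Subread) on mm10, per the submitters' processing notes. The library kit (TruSeq v2, per the labels) keeps no strand. For the annotation, multi-mapped reads and counting options the sources used here give nothing. The table has 24062 genes, all 9 of its count columns were used, and totals were 56.9 to 76.1 M.

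Counts were normalized by TMM, filtered with filterByExpr (14572 genes kept) and fitted over all 9 libraries in edgeR 4.0.16 (R 4.3.3, limma 3.58.1) by the quasi-likelihood test, with Benjamini-Hochberg adjustment over all genes kept and a threshold of 0.05. CPM uses TMM-scaled library sizes, the SE of a log2 fold change is its size divided by the root of F, and levels per kilobase use exon lengths of GENCODE M21, which need not be the authors' annotation. The fit was tested on simulated data. DESeq2 1.42.0, other scalings and filters, a replicate block, 2-group fits and left-out libraries were the alternatives.

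The 9 genes and all lists were chosen with earlier results of these data known. Beyond the 9, each list names up to 4 genes past the threshold by lowest adjusted p per comparison and its most-read gene, together with the vector genes, markers given as values, and the 5 genes nearest in profile to Gli2 and to Gli1. Shh, Ihh, Dhh and Mycn were added to these.

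Replicate numbers stand in the labels without a stated meaning. Deviations of same-numbered libraries from their group means correlated by 0.251, 0.109 and 0.545 in p16 and control cells and by 0.159, 0.287 and 0.478 in p21 and p16 cells (numbers 1, 2 and 3), over genes and not over independent samples. All exceed 0.1, and on the data alone blocked counts are given beside those comparisons, whereas the main fit has no block. Replicate 2 of p16 cells correlated more with control replicate 1 (0.299) than with its own number.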

Additional observations from a re-analysis of the deposited data

How the results depend on the processing

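Across 17 alternatives no result passed the threshold in the opposite direction, and all 9 genes were recomputed under each that kept them (Gli1 and Hhip fell below the filter of 1 CPM in 3 libraries). Of the 9 genes 5 were past the threshold in p21 against control cells. The count was 3 with that filter or with only the 2 groups compared, and 2 to 6 with single libraries left out. All genes called lower were 22.9% with that filter, 18.2% with the 2 groups and 14.2 to 19.9% with single libraries left out. In p16 against control cells the count of 0 became 3 with the replicate block and stayed at 0 with single libraries left out. In p21 against p16 cells the count of 1 became 3 with the block or with replicates 1 and 2 only, and 0 to 1 with single libraries left out. Of the other pathway genes 28 passed in p21 against control cells, and 15 to 27 with single libraries left out. These fits with a library left out called 28.6 to 39.1% of all genes. The 2 in p16 against control cells became 7 by DESeq2, 10 with the block, 1 in the 2-group fit, 1 with replicates 1 and 2 only and 1 to 4 with single libraries left out. The shares of all genes called were, in the same order, 12.4, 17.0, 3.89, 4.06 and 1.5 to 6.42%, beside 7.22% in the main fit. The 4 in p21 against p16 cells became 9 by DESeq2, 14 with the block, 8 in the 2-group fit, 8 with replicates 1 and 2 only and 0 to 7 with single libraries left out. Here those shares were 17.8, 24.0, 14.8, 12.3 and 4.06 to 16.7%, beside 12.8% in the main fit. The cause was not tested.

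In p21 against control cells the same-number correlations were 0.183, 0.0253 and 0.489, and p21 replicate 2 correlated best with control replicate 1 (0.358). The same libraries enter the other comparisons, so pairing by number is not settled. With the replicate block in p21 against control cells, 7 of the 9 genes and 36 of the other pathway genes were past the threshold, in a fit that called 49.7% of all genes. Scaling by library size alone called 2465 genes higher and 3450 lower in that comparison, against 2808 and 3012 with TMM. Depth limits Gli1 and Hhip, at 10 to 88 and 11 to 57 reads per library.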
